A study of Mus musculus with 8 samples.

Results

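Integrins are the cell surface receptors for the extracellular matrix, and laminins are the matrix proteins that build basement membranes. Genes of both families were described here in the uterus of mice that lack Nr2f2 in Pgr-expressing cells. The members were chosen by gene symbol alone: every gene of the table named Itga, Itgb, Lama, Lamb or Lamc with its number or letter. No measured value entered this rule, though it was set with earlier results of these data known. The rule found 37 genes of the 24963 in the table, and the 36 described here comprise 26 that encode integrin subunits and 10 that encode laminin chains.

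Uterine tissue was collected at gestation day 3.5 (GD3.5) from 4 control mice and 4 mutants, and each mouse gave 1 RNA-seq library. The controls, Nr2f2 f/f, carried the floxed Nr2f2 allele without Cre, and the sample labels call them WT. The mutants, Nr2f2 d/d, carried the same floxed allele with Pgr Cre/+, in which Cre is expressed from 1 Pgr allele, so that the deletion was limited to cells that have expressed the progesterone receptor. All the mice were of the strain that the labels give as C57B6/J, their age is given as 8 weeks in the labels and as 2 to 3 months in the study's methods, and the males they mated with were vasectomized, so no embryo was present. The tissue was not separated into cell types.

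An integrin is a pair of an alpha and a beta subunit, and the pair decides which ligand is bound. One group of pairs binds laminins, a further group binds collagens, others recognize the short RGD motif of fibronectin, vitronectin, osteopontin and latent TGF-beta, and the pairs built on Itgb2 and Itgb7 belong mainly to leukocytes. A laminin is a trimer of an alpha, a beta and a gamma chain, and the chains present set where it is deposited: the chain of Lama2 is typical of the basement membranes of muscle, that of Lama4 of vessels, that of Lama5 of epithelia, and those of Lama3 and Lamb3 belong to laminin-332, which anchors epithelia. In the uterus at implantation, integrins at the luminal surface and the basement membrane beneath it lie between the embryo and the stroma.

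The sequences just upstream of the transcription start are shown for 3 members, because Itgb8 and Lama2 were the members with an adjusted p under 0.05 and because Itgb5 was the most abundant of the members that were higher at the study's threshold, defined with the tests. They are the 250 bases before the start in the RefSeq annotation of GRCm38.p6, written 5′ to 3′ on the strand of the gene. The window of Itgb8 is chr12:119238277-119238526 on the minus strand, that of Lama2 is chr10:27616943-27617192 on the minus strand, and that of Itgb5 is chr16:33829415-33829664 on the plus strand. Capitals mark the motifs searched on both strands: the nuclear receptor half-site as AGGTCA or GGGTCA, the E-box CATCTG and the GC box GGGCGG. Other forms of the E-box were not searched. The letters GGGTCA were added to the search after the values and windows were seen.
Itgb8: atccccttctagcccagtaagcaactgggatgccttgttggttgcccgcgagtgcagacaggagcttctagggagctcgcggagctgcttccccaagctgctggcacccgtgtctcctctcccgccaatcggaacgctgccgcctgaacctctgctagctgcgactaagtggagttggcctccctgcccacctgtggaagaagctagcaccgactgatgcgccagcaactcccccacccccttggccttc
Lama2: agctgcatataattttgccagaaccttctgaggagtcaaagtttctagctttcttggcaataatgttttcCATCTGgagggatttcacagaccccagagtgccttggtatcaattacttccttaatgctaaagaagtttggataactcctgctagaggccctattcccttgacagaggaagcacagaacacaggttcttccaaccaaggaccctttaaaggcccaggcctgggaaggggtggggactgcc
Itgb5: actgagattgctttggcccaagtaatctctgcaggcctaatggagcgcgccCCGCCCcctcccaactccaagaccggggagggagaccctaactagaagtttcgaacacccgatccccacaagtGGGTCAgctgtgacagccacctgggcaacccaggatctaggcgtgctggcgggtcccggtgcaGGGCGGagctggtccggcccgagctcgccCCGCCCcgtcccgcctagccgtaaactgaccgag

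The window of Itgb8 held none of these letters, and that of Lama2 held 1 CATCTG that begins at position -180 relative to the start. That of Itgb5 held 3 GC boxes and 1 half-site, GGGTCA. The half-site is the core of the element to which NR2F2 binds. Of the 26 windows found for 23 of the 36 members, 0 held it as AGGTCA, against 4607 of 32851 windows of all genes, and 5, those of Itga3, Itga10, Itga11, Itgb5 and Itgb7, held it as GGGTCA, against 3826. Either form was thus in 5 of the 26, against 23.8% of all windows. The E-box form CATCTG was in 5 of the 26, those of Itga5, Itgam, Lama2, Lamb2 and Lamb3, against 14.4% of all windows. The GC box was in 9 of the 26, against 32.7%. These are matches of letters in a short window and say nothing of binding. In GENCODE vM21, an annotation of the same build, Itgb8 spans chr12:119158022-119238802 and Lama2 spans chr10:26980036-27619758, so both RefSeq starts lie within the annotated genes, while Itgb5 spans chr16:33829665-33949338 and begins right after its window.

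Values are FPKM, fragments scaled to the length of the gene and to the total of the library, so that levels can be compared between genes. Nr2f2 itself fell from 24.1 ± 1.80 FPKM in Nr2f2 f/f to 8.93 ± 1.36 FPKM in Nr2f2 d/d (SD, n = 4 each; log2 fold change -1.39, SE 0.118, limma adjusted p = 0.00549). Recovered library totals were 61350000 to 92500000 fragments, and the lowest estimate for any member in any library was 33.3 fragments, for Lama1. The library of Nr2f2 f/f replicate 2 stood apart: 32 genes, Lama3 among them, were at least 4-fold above all other libraries in it, against 0 to 6 genes in each of the others. The members' fold changes that moved by over 1.5 times or changed sign without this library are given together after the other results. All 7 markers of uterine tissue passed the filter on low values, 0 of them passed the study's threshold in limma, 2 had an unadjusted p under 0.05, and their sums were 275 to 367 FPKM in Nr2f2 f/f and 290 to 372 FPKM in Nr2f2 d/d.

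The 36 members spanned a wide range of levels. The common beta subunit Itgb1, which pairs with most alpha subunits, was the highest with a mean of 118 FPKM over the 8 libraries. It was followed by the laminin chains Lamb1 with 46.3 FPKM, Lamc1 with 44.5 FPKM and Lamb2 with 35.0 FPKM, and by the integrins Itgb5 with 34.2 FPKM, Itga5 with 28.9 FPKM and Itga6 with 28.8 FPKM. Lama5 had 21.5 FPKM. Of the 35 pairs of neighbours in this order, only Itgb1 and Lamb1 had ranges over the 8 libraries that did not overlap. In all, 13 members had a mean of at least 10 FPKM, and 3 members, Itgad with 0.439 FPKM, Itga11 with 0.426 FPKM and Lama1 with 0.239 FPKM, were under the mean of 0.5 FPKM required for the test.

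Differences between the genotypes were tested with limma on log2(FPKM + 0.5) over all 14323 genes above that filter, which included 24 integrins and 9 laminins. A fold change on this scale understates the change of low genes. Of the 33 members, 0 were higher and 2 were lower at an adjusted p under 0.05, Itgb8 and Lama2, where 1.09% of all genes tested were higher and 1.53% lower, 2.62% together. At an unadjusted p under 0.05 alone, 4 members were higher and 4 were lower, where 8.66% of all genes tested were higher and 12.5% lower, 21.2% together. The threshold of the study, an unadjusted p under 0.05 with a fold of at least 1.4, was met by 7 members (21.2%) against 8.8% of all genes tested. Itga8, Itgb5, Itgb6 and Lamb3 were higher at that threshold, where 4.7% of all genes were, and Itgb8, Lama2 and Lamc3 were lower, where 4.1% were. The 4 integrins were all of the RGD-binding class, and the laminins comprised 1 alpha, 1 beta and 1 gamma chain. Without Nr2f2 f/f replicate 2, 4 integrins and 4 laminins, with Lamc1 added, were at the study's threshold, and 2 integrins and 0 laminins had an adjusted p under 0.05.

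The 2 genotypes did not overlap in 5 of the 33 members (15.2%), against 15.4% of all genes tested. Itga8 and Itgb6 were higher in every mutant than in any control, where 5.49% of all genes were, and Itgb8, Lama2 and Lamc3 were lower, where 9.91% were. The share of members without overlap was therefore close to that of all genes. The log2 fold change was above 0 in 20 of the 24 integrins, with a median of 0.14, and in 2 of the 9 laminins, with a median of -0.24. The median of all genes tested was -0.02, and 6686 of them were above 0. These counts and medians are with all 8 libraries. Without Nr2f2 f/f replicate 2, Lama3 and Itgb4 were above 0, at 0.45 and 0.08, and Itga2b was below it, at -0.09. Lamb1 and Lamb2 then moved to -0.06 and -0.08, and Lamc1 and Lamc3 to -0.65 and -1.71.

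**Figure D1:**
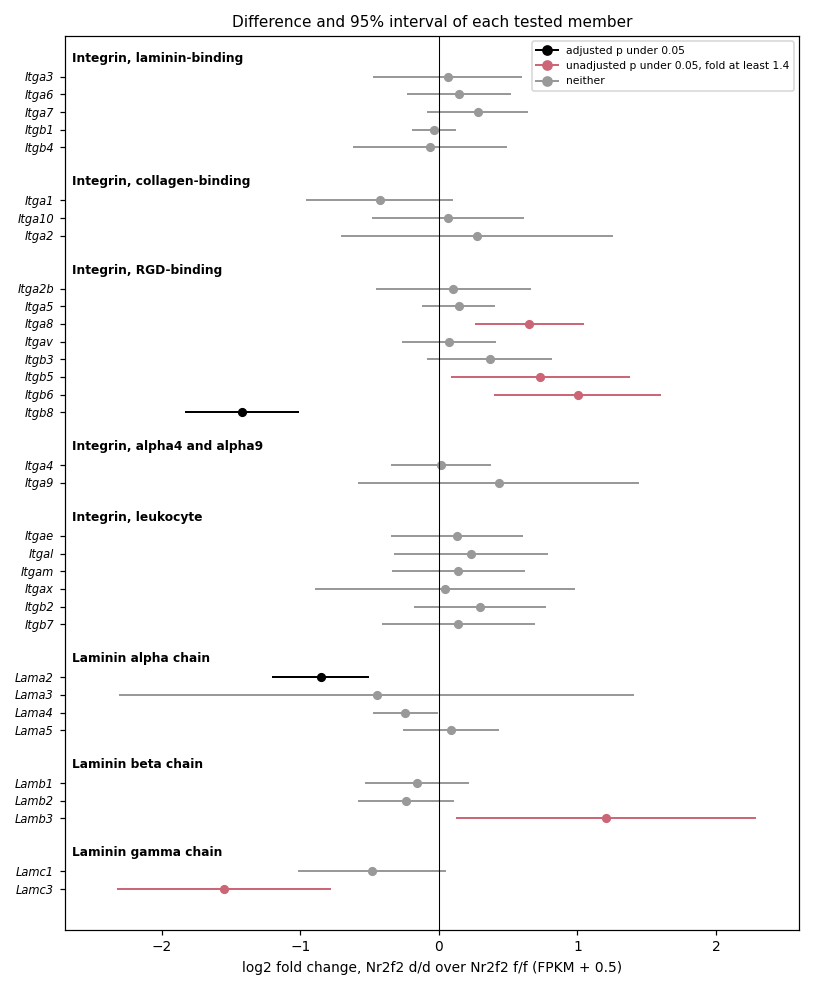
Log2 fold change of Nr2f2 d/d over Nr2f2 f/f (x axis, on log2 of FPKM + 0.5) for the 33 tested integrin and laminin genes, grouped by class; points are limma estimates from 4 libraries per genotype and lines are 95% intervals. Itgb8 and Lama2 (black) lie left of 0 at an adjusted p under 0.05, and Lamc3 lies left of 0 and Itga8, Itgb5, Itgb6 and Lamb3 right of 0 (red) at the threshold of the study.

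Among the RGD-binding integrins, Itgb8 fell and Itgb6 was higher, and both encode beta subunits that pair with the alpha subunit of Itgav and activate latent TGF-beta. Itgb8 was at 2.44, 3.28, 2.18 and 1.86 FPKM in Nr2f2 f/f replicates 1 to 4, and in Nr2f2 d/d replicates 1 to 4 it was at 0.727, 0.503, 0.394 and 0.750 FPKM. Every mutant was below every control, and the mutant mean was 24.3% of the control mean. The log2 fold change was -1.42 (standard error, SE, 0.176, adjusted p = 0.0121 from limma), and the exact permutation test on FPKM gave p = 0.0286, the smallest that 4 against 4 libraries allow. The adjusted p of Itgb8 stayed under 0.05 in 7 of the 8 fits that left out 1 library, and it was 0.0609 without Nr2f2 d/d replicate 2.

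Itgb6, which is typical of epithelia, was at 1.24, 0.473, 1.53 and 1.53 FPKM in the controls and at 3.73, 2.74, 2.66 and 2.09 FPKM in the mutants. The groups did not overlap, and the lowest value was that of Nr2f2 f/f replicate 2. This gave a log2 fold change of 1.00 (SE 0.259, unadjusted p = 0.0046, adjusted p = 0.0806 from limma), and it was 0.75 without that replicate (unadjusted p = 0.00273, adjusted p = 0.0708 from limma). Of the 2 genes, Itgb8 was the higher in all 4 controls and Itgb6 in all 4 mutants: the ratio of Itgb6 to Itgb8 FPKM was 0.507, 0.144, 0.702 and 0.821 in the controls and 5.13, 5.44, 6.76 and 2.78 in the mutants.

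Itgb5, whose product pairs with the alpha subunit of Itgav to bind vitronectin, was at 19.2, 43.3, 24.1 and 18.6 FPKM in Nr2f2 f/f and at 52.5, 37.1, 46.6 and 32.1 FPKM in Nr2f2 d/d. The groups overlapped through Nr2f2 f/f replicate 2, which lay above 2 of the 4 mutants. A log2 fold change of 0.73 was obtained (SE 0.278, unadjusted p = 0.0296, adjusted p = 0.191 from limma), and the exact permutation test on FPKM gave p = 0.0857. Without that replicate it was 1.00 with an adjusted p of 0.0415 from limma, and the study's threshold was met in 3 of the 8 fits that left out 1 library, namely without replicate 2 of the controls or without replicate 2 or 4 of the mutants.

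Itgav, the shared partner, was at 10.5, 12.04, 8.32 and 8.33 FPKM in the controls and at 10.9, 8.69, 12.01 and 9.58 FPKM in the mutants. These values overlapped, and the log2 fold change was 0.07 (95% interval -0.26 to 0.41, adjusted p = 0.809 from limma). Itgb3, the beta subunit of the platelet and endothelial vitronectin receptor, had means of 9.93 ± 0.581 and 13.4 ± 3.97 FPKM (SD, n = 4 each; adjusted p = 0.314 from limma). Together, Itgb3, Itgb5, Itgb6 and Itgb8 were at 3.14 to 4.67 times the FPKM of Itgav in the controls and 4.60 to 6.72 times in the mutants. Itgb8 made up 5.76% to 7.43% of the summed FPKM of these 4 genes in Nr2f2 f/f and 0.587% to 1.70% in Nr2f2 d/d.

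**Figure D2:**
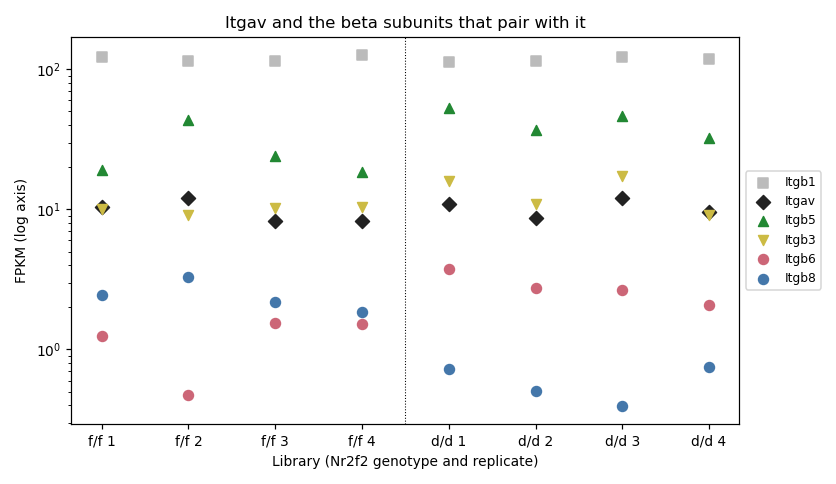
FPKM on a log axis (y) of Itgav and the 5 beta subunits that pair with it, in each of the 8 libraries (x), with no averaging. Itgb6 lies below Itgb8 in the 4 Nr2f2 f/f libraries and above it in the 4 Nr2f2 d/d libraries, while Itgb1 stays between 112 and 127 FPKM.

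Itga8, whose product pairs with that of Itgb1 and binds nephronectin, was at 1.22, 2.18, 1.42 and 1.86 FPKM in Nr2f2 f/f and at 3.42, 2.28, 3.06 and 2.80 FPKM in Nr2f2 d/d. Every mutant was above every control, though the highest control and the lowest mutant differed little. In limma the log2 fold change was 0.65 (SE 0.168, unadjusted p = 0.00434, adjusted p = 0.0798 from limma), and the study's threshold was met in all 8 fits that left out 1 library. Exons of Itga8 share 5.05% of their bases with a gene on the opposite strand, and the strand setting of the counting is not given in the sources used here. Of the other RGD-binding alpha subunits, the fibronectin receptor Itga5 had means of 27.4 ± 2.55 and 30.4 ± 4.08 FPKM (SD, n = 4 each; adjusted p = 0.488 from limma), and the platelet subunit Itga2b had 3.13 ± 1.05 and 3.33 ± 0.763 FPKM (SD, n = 4 each; adjusted p = 0.839 from limma).

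Itgb1 was at 122, 114, 116 and 127 FPKM in Nr2f2 f/f and at 112, 114, 122 and 119 FPKM in Nr2f2 d/d. Its log2 fold change was -0.04 (adjusted p = 0.793 from limma), and the 95% interval, -0.19 to 0.12, was the narrowest of all members. With quantile scaling Itgb1 was at -0.16 on the log2 scale (unadjusted p = 0.0203, adjusted p = 0.163 from limma). The alpha subunits that pair with it added up to 96.1 to 103 FPKM in the controls and to 101 to 119 FPKM in the mutants, and Itgb1 was 1.17 to 1.24 times that sum in the controls and 0.963 to 1.14 times in the mutants. Over the 24 known pairs, the alpha gene was below its beta gene in all 8 libraries in 20. The beta gene was below the alpha gene in all 8 libraries in 3 pairs, Itgav with Itgb6, Itgav with Itgb8, and Itga6 with Itgb4, and Itgav with Itgb3 was mixed.

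With all 8 libraries and no replicate block or further scaling, 0 of the 5 laminin-binding integrins passed a threshold in limma. At an unadjusted p under 0.05 it was 0 as well. Itga6 was the highest alpha subunit of the class, with 27.3 ± 4.94 FPKM in Nr2f2 f/f and 30.3 ± 5.10 FPKM in Nr2f2 d/d, and Itgb4, its partner in hemidesmosomes, was at 12.1 ± 4.02 and 11.3 ± 2.15 FPKM (SD, n = 4 each). Itga3 was at 12.4 ± 3.76 and 12.9 ± 3.08 FPKM, and Itga7, the laminin receptor of muscle, at 4.35 ± 1.04 and 5.33 ± 0.706 FPKM (SD, n = 4 each). Their log2 fold changes lay between -0.06 for Itgb4 and 0.28 for Itga7. For Itga3, Itga6, Itgb4 and Itgb1 the difference between the means was below the SD of either genotype, and for Itga7 it was below that of the controls.

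Of the 4 collagen-binding alpha subunits, 3 were tested. With all 8 libraries and no replicate block or further scaling, 0 passed a threshold in limma, also at an unadjusted p under 0.05. Itga1 was at 5.45 ± 1.504 FPKM in Nr2f2 f/f and 3.94 ± 1.22 FPKM in Nr2f2 d/d (SD, n = 4 each; log2 fold change -0.43, adjusted p = 0.320 from limma). When 1 library was left out it ranged from -0.60 to -0.28, and it met the study's threshold without Nr2f2 f/f replicate 3 (-0.56, unadjusted p = 0.0398, adjusted p = 0.232 from limma) and without Nr2f2 d/d replicate 4 (-0.60, unadjusted p = 0.0189, adjusted p = 0.163 from limma). Itga2 was at 0.995 to 1.87 FPKM in the controls and spread from 0.677 to 4.11 FPKM in the mutants, in which replicates 1 and 3 were above and replicates 2 and 4 below all controls. Itga10 was at 2.02 ± 0.589 and 2.17 ± 0.819 FPKM (SD, n = 4 each), and 33.5% of its exon bases are shared with a gene on the same strand. Itga11 was at 0.301 to 0.766 FPKM over the 8 libraries. Itga4 and Itga9, which bind VCAM1 and tenascin among others, had log2 fold changes of 0.02 and 0.43 (adjusted p = 0.967 and 0.609 from limma), and Itga9 was spread over 2.57 to 8.74 FPKM in the controls and 3.55 to 9.80 FPKM in the mutants.

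All 6 tested leukocyte integrins had log2 fold changes above 0, from 0.05 for Itgax to 0.30 for Itgb2. With all 8 libraries and no replicate block or further scaling, 0 passed a threshold in limma, also at an unadjusted p under 0.05. Itgb2, the common beta subunit of leukocytes, was at 5.82, 8.01, 7.83 and 6.50 FPKM in Nr2f2 f/f and at 10.2, 8.74, 5.64 and 11.2 FPKM in Nr2f2 d/d. Its log2 fold change was 0.18 to 0.49 when 1 library was left out, and it met the study's threshold in 1 of these 8 fits, the one without Nr2f2 d/d replicate 3 (0.49, unadjusted p = 0.00831, adjusted p = 0.119 from limma). The alpha partners Itgal, Itgam and Itgax had means of 4.98, 3.19 and 4.38 FPKM in Nr2f2 f/f and 6.09, 3.61 and 4.81 FPKM in Nr2f2 d/d, and 68.7% of the exon bases of Itgam are shared with a gene on the same strand. Itgae and Itgb7, the pair of intraepithelial lymphocytes, had log2 fold changes of 0.13 and 0.14 (adjusted p = 0.756 and 0.774 from limma). Itgad, the last of the class, was not tested and reached its highest value, 1.23 FPKM, in Nr2f2 d/d replicate 4. Nr2f2 d/d replicate 3 was the lowest mutant for Itgal, Itgam, Itgax, Itgad, Itgae, Itgb2 and Itgb7. It was also the lowest of all 8 libraries for the leukocyte marker Ptprc, at 8.14 FPKM against 11.2 to 18.7 FPKM in the others, whereas for the other 5 pan-leukocyte markers it was the lowest mutant and Nr2f2 f/f replicate 1 was the lowest library. The summed pan-leukocyte markers were 77.5 to 108 FPKM in the controls and 88.2 to 152 FPKM in the mutants, with 0 of 6 at the study's threshold in limma and 1 at an unadjusted p under 0.05. Of 9 markers of T and NK cells, 5 were higher at that threshold, with sums of 43.0 to 66.5 FPKM in the controls and 53.5 to 274 FPKM in the mutants, the last in replicate 4, which was also the highest library for Itgal, Itgax, Itgad and Itgb2. Of the tested markers of other cell types, 0 of 7 for macrophages, 0 of 1 for platelets and 0 of 1 for Schwann cells were at the threshold, while 2 of 4 neutrophil markers were higher and 1 lower, 1 of 1 for B cells was higher, 3 of 7 for stroma were higher and 1 lower, 2 of 4 for mesothelium were higher and 1 of 5 for pericytes was lower. The part of cell composition in the leukocyte integrin values was not tested. In whole tissue, fewer cells of a type and less RNA per cell cannot be told apart.

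**Figure D3:**
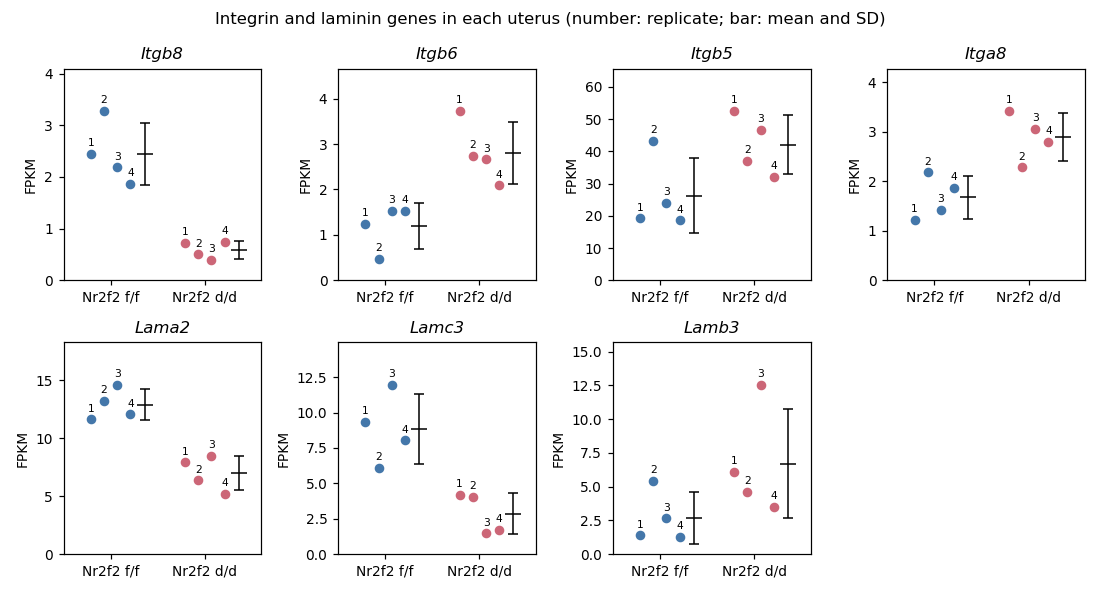
FPKM (y axis, from 0) of the 7 members at the study's threshold in each library; points are single uteri numbered by replicate, and bars are the mean and SD of 4 libraries per genotype. Itgb8, Lama2 and Lamc3 show every Nr2f2 d/d point below every Nr2f2 f/f point, Itgb6 and Itga8 every one above, and Itgb5 and Lamb3 overlap.

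Among the laminin alpha chains, Lama2 fell. It was at 11.6, 13.2, 14.6 and 12.04 FPKM in Nr2f2 f/f and at 7.91, 6.37, 8.45 and 5.22 FPKM in Nr2f2 d/d. The highest mutant was below the lowest control, and the mutant mean was 54.3% of the control mean. The log2 fold change was -0.85 (SE 0.150, adjusted p = 0.0299 from limma), and the exact permutation test on FPKM gave p = 0.0286. Its adjusted p was under 0.05 in 2 of the 8 fits that left out 1 library, those without Nr2f2 d/d replicate 3 or 4, and ranged from 0.0356 to 0.1004 over them, with log2 fold changes between -0.95 and -0.73. The 7 endothelial markers and the pericyte marker Rgs5 were lower as well, while 0 of the 8 smooth muscle markers passed a threshold in limma, also at an unadjusted p under 0.05, and their sums were 1297 to 1825 FPKM in the controls and 1041 to 2561 FPKM in the mutants. The part of cell composition in the values of Lama2 was not tested.

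Lama4, a chain of vessel walls, was at 12.6, 13.4, 11.5 and 14.3 FPKM in Nr2f2 f/f and at 9.73, 10.1, 12.4 and 11.2 FPKM in Nr2f2 d/d. Of the mutants, only replicate 3 was within the range of the controls, the log2 fold change was -0.24 (unadjusted p = 0.0390, adjusted p = 0.213 from limma), and the fold was under 1.4. All 7 endothelial markers were at the study's threshold and lower in Nr2f2 d/d, 5 of them with an adjusted p under 0.05 in limma, and their sums were 263 to 349 FPKM in the controls and 156 to 201 FPKM in the mutants. Relative to the endothelial gene Pecam1, Lama4 was at 0.177 to 0.263 in the controls and at 0.325 to 0.370 in the mutants, so the ratio was higher in every mutant. The same held relative to 6 of the 7 endothelial markers, Pecam1 among them, and relative to the other, Tek, the ratios overlapped.

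Lama5, the alpha chain of epithelial basement membranes, was at 22.4, 25.8, 19.5 and 16.0 FPKM in Nr2f2 f/f and at 23.4, 19.8, 24.7 and 20.3 FPKM in Nr2f2 d/d. The groups overlapped, with a log2 fold change of 0.09 (95% interval -0.25 to 0.43, adjusted p = 0.766 from limma). Lama3 was at 4.60, 42.7, 2.93 and 2.14 FPKM in the controls and at 5.23, 3.42, 6.15 and 3.35 FPKM in the mutants. Its value in Nr2f2 f/f replicate 2 was above all others, and the sign of its log2 fold change rested on that library: it was -0.45 with it (adjusted p = 0.787 from limma) and 0.45 without it (adjusted p = 0.408 from limma). Lama1, the alpha chain of the early embryo, was at 1.38 FPKM in the same replicate and at 0.056 to 0.103 FPKM in the other 7 libraries.

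Of the summed FPKM of the alpha chains, Lama5 made up 36.6% ± 7.30 in the controls and 49.6% ± 1.36 in the mutants, and Lama2 made up 23.4% ± 7.11 and 15.6% ± 1.80 (SD, n = 4 each). In Nr2f2 f/f replicate 2, Lama3 took 44.2% of the sum, which lowered the share of every other chain there. The ratio of Lama5 to Lama2, which does not depend on Lama3, was 1.93, 1.95, 1.33 and 1.33 in the controls and 2.95, 3.11, 2.92 and 3.90 in the mutants, and these did not overlap.

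The beta chains Lamb1 and Lamb2 made up most of the beta chain FPKM in every library. Lamb1 was at 40.4, 59.7, 47.2 and 47.8 FPKM in Nr2f2 f/f and at 54.7, 38.0, 46.5 and 36.3 FPKM in Nr2f2 d/d. Lamb2 was at 34.8, 51.9, 33.8 and 32.1 FPKM in the controls and at 31.3, 31.8, 29.8 and 34.4 FPKM in the mutants. Both were highest in Nr2f2 f/f replicate 2, and neither passed a threshold in limma, with log2 fold changes of -0.16 and -0.23 (adjusted p = 0.608 and 0.395 from limma).

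Lamb3, the beta chain of laminin-332, was at 1.41, 5.41, 2.66 and 1.26 FPKM in Nr2f2 f/f and at 6.12, 4.63, 12.5 and 3.52 FPKM in Nr2f2 d/d. Replicate 2 of the controls lay above mutant replicates 2 and 4, and mutant replicate 3 was far above the other mutants. Its log2 fold change was 1.21 (SE 0.469, unadjusted p = 0.0323, adjusted p = 0.197 from limma), the exact permutation test on FPKM gave p = 0.0857, and the study's threshold was not met without Nr2f2 f/f replicate 1 or 4 or without Nr2f2 d/d replicate 1 or 3. Without Nr2f2 f/f replicate 2 the log2 fold change was 1.56 (unadjusted p = 0.00613, adjusted p = 0.0972 from limma). Lamb3 made up 1.55% to 4.62% of the beta chain FPKM in the controls and 4.75% to 14.1% in the mutants.

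Lama3, the alpha chain of the same laminin, was below Lamb3 in all 4 mutants, with a ratio of 0.491 to 0.952, and above it in all 4 controls, with a ratio of 1.10 to 7.89, the last in replicate 2.

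Of 8 epithelial markers, 4 were higher in Nr2f2 d/d at the study's threshold, as Lamb3, Itgb5 and Itgb6 were, and 2 of these, Krt8 and Elf3, had an adjusted p under 0.05 in limma, and their sums were 500 to 601 FPKM in Nr2f2 f/f and 733 to 926 FPKM in Nr2f2 d/d. Epcam, Krt18, Foxa2 and Cldn7, named after their values were seen, were not at that threshold. Their log2 fold changes were 0.06, 0.06, -0.02 and 0.34, and Cldn7 had an unadjusted p of 0.0435 from limma. Within a genotype the summed markers and these members had the same order in part. The sum was highest among the controls in replicate 2, where Itgb5 and Lamb3 were highest and Itgb6 was lowest. Among the mutants it was highest in replicate 3, as Lamb3 was, and lowest in replicate 2, where none of the 3 was lowest. Relative to Krt8, Lamb3 and Itgb6 each overlapped between the genotypes, with ratios of 0.0108 to 0.0486 and 0.0184 to 0.0604 for Lamb3 and 0.00425 to 0.0131 and 0.0109 to 0.0186 for Itgb6. Lamb3 and Itgb5 overlapped relative to each of the 8 markers, whereas Itgb6 overlapped relative to 6 of them. Relative to Epcam, Itgb6 was at 0.00448 to 0.0223 in the controls and 0.0231 to 0.0351 in the mutants, and relative to Foxa2 at 0.146 to 0.241 and 0.458 to 0.584, so that both of these ratios were higher in every mutant. A list of 6 markers of stratified epithelium, keratins and Trp63, was added after the values were seen, and 3 of them passed the filter. It summed to 0.398 to 0.940 FPKM in the controls and to 15.9, 19.5, 20.4 and 1.82 FPKM in mutant replicates 1 to 4. Most of the sum in mutant replicates 1 to 3 was Krt15 (7.78, 11.2 and 10.9 FPKM) and Krt5 (4.81, 5.65 and 4.86 FPKM). Each keratin on the list was higher in every mutant than in any control. Trp63 overlapped, at 0.183 to 0.308 FPKM in the controls and 0.244 to 0.384 FPKM in the mutants. Replicate 4, the lowest mutant on that list, was also the lowest mutant for Itgb5, Itgb6 and Lamb3. The part of epithelial content in these 3 results was not tested.

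Lamc3, a gamma chain of less common laminins, was at 9.33, 6.11, 11.96 and 8.03 FPKM in Nr2f2 f/f and at 4.18, 4.06, 1.46 and 1.74 FPKM in Nr2f2 d/d. Every mutant was below every control, and the mutant mean was 32.3% of the control mean. The log2 fold change was -1.55 (SE 0.333, unadjusted p = 0.00151, adjusted p = 0.0517 from limma), and it met the study's threshold in all 8 fits that left out 1 library. Exons of Lamc3 share 6.27% of their bases with a gene on the opposite strand.

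Lamc1, the common gamma chain, was at 80.2, 35.1, 43.7 and 52.2 FPKM in the controls and at 33.9, 31.9, 39.5 and 39.2 FPKM in the mutants. Replicate 1 of the controls was well above all other libraries, replicate 2 lay within the mutants, and the log2 fold change was -0.48 (unadjusted p = 0.0686, adjusted p = 0.276 from limma). Without replicate 2 of the controls it was -0.65 (unadjusted p = 0.0134, adjusted p = 0.138 from limma), which met the study's threshold, as 1 of the 8 fits that left out 1 library. Without replicate 1 of the controls it was -0.26 (unadjusted p = 0.126, adjusted p = 0.435 from limma). The ratio of Lamc1 to Lamc3 FPKM was 8.60, 5.75, 3.65 and 6.50 in the controls and 8.12, 7.85, 27.1 and 22.6 in the mutants, which overlapped through control replicate 1.

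**Figure D4:**
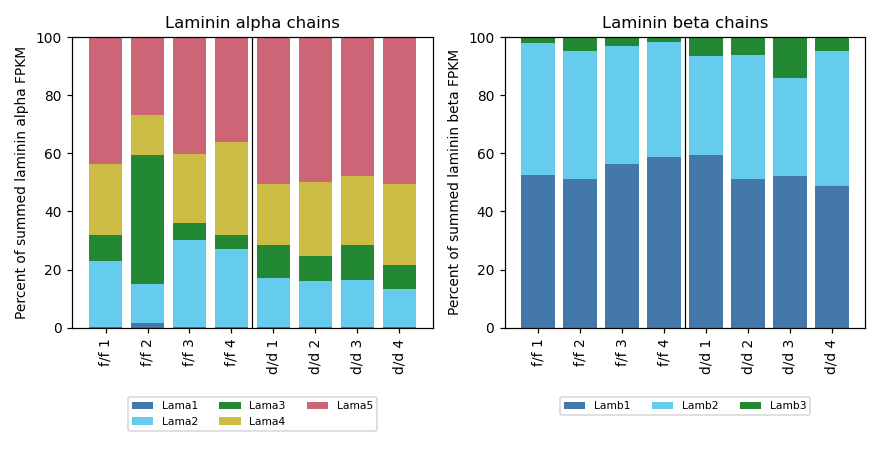
Share of each laminin chain in the summed FPKM of its kind (y axis, percent) in each library (x axis), for the alpha and beta chains. Lama3 fills 44.2% of the alpha chains in Nr2f2 f/f replicate 2 alone, Lama5 lies near 49.6% in the Nr2f2 d/d libraries, and Lamb3 is at 4.75% to 14.1% of the beta chains there against 1.55% to 4.62% in Nr2f2 f/f.

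Genes that act with the members were read from 3 lists of their pathway, chosen with earlier results of these data known. A share above that of all genes may therefore come from the choice. Of 40 tested adaptors of integrins and focal adhesions, 0 were higher and 1 was lower at an adjusted p under 0.05 in limma, or 2.5% against 2.62% of all genes tested, with 3 higher and 6 lower at an unadjusted p under 0.05, or 22.5% against 21.2% of all genes, and a median log2 fold change of 0.02. The one that fell was Parvb, an adaptor between integrins and actin, from 9.42 ± 1.64 to 5.38 ± 0.294 FPKM (SD, n = 4 each). Of 28 tested basement membrane partners, 0 were higher and 1, the collagen gene Col18a1, was lower at an adjusted p under 0.05 in limma, or 3.57%, with a median log2 fold change of -0.02. At an unadjusted p under 0.05, 4 of these partners were higher and 8 lower, or 42.9% against 21.2% of all genes, and 2 were higher and 6 lower at the study's threshold, or 28.6% against 8.8%. Of the 40 adaptors, 1 was higher and 3 were lower at that threshold. The median of all genes tested was also -0.02.

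The third list, chosen in the same way, was of ligands of the RGD-binding and other integrins, though not every gene on it encodes a ligand. At the study's threshold, 4 of its 29 tested genes were higher and 5 lower, or 31.0% against 8.8% of all genes tested. At a limma adjusted p under 0.05, 2 were higher and 3 lower, or 17.2% against 2.62%. Those that fell were the fibronectin gene Fn1, the vitronectin gene Vtn, from 2.21 ± 0.314 to 0.999 ± 0.251 FPKM, and Adam15, a cell surface protease with an RGD-like integrin-binding site, from 41.0 ± 2.42 to 28.9 ± 2.11 FPKM (SD, n = 4 each). Those that rose were Spp1, which encodes osteopontin, from 34.4 ± 18.3 to 150 ± 49.1 FPKM, and Ltbp1, which tethers latent TGF-beta to the matrix, from 5.97 ± 1.24 to 11.7 ± 1.45 FPKM (SD, n = 4 each). Itgb5, Itgb6 and Itgb8 encode subunits of receptors for several of these ligands. Without overlap between the genotypes, 3 of the 29 genes were higher (Spp1, Ltbp1 and Fap) and 4 were lower (Fn1, Vtn, Adam15 and Npnt). Of all genes tested, 5.49% were higher and 9.91% lower in this way. Fap and Npnt are named here after their values were seen. Npnt encodes nephronectin, the ligand of the receptor that contains the product of Itga8, and it was at 10.2, 18.9, 10.7 and 12.3 FPKM in Nr2f2 f/f and at 7.06, 8.40, 9.67 and 10.2 FPKM in Nr2f2 d/d. The lowest control and the highest mutant were almost level, at 10.22 and 10.19 FPKM. The log2 fold change of Npnt was -0.51 (unadjusted p = 0.0335, adjusted p = 0.200 from limma), it was -0.32 without Nr2f2 f/f replicate 2 (unadjusted p = 0.0461, adjusted p = 0.236 from limma), and the study's threshold was met in 4 of the 8 fits that left out 1 library. In the same fits, an adjusted p under 0.05 from limma was found 8 times for Fn1, 4 times each for Ltbp1 and Adam15 and 2 times each for Spp1 and Vtn.

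The 7 members at the study's threshold kept their direction in every fit that left out 1 library. Log2 fold changes ranged from -1.52 to -1.29 for Itgb8, from -1.75 to -1.33 for Lamc3, from 0.75 to 1.11 for Itgb6, from 0.55 to 0.76 for Itga8, from 0.60 to 1.00 for Itgb5 and from 0.87 to 1.56 for Lamb3. Leaving out Nr2f2 f/f replicate 2 gave the highest of these values for Itgb8, Itgb5, Itga8 and Lamb3 and the lowest for Itgb6. Of the 26 tested members below that threshold, 16 had a log2 fold change that moved by over 1.5 times without Nr2f2 f/f replicate 2, and 3 more changed sign. The 3 were Lama3 (from -0.45 to 0.45), Itgb4 (from -0.06 to 0.08) and Itga2b (from 0.10 to -0.09). Of the laminins, Lamb1 moved from -0.16 to -0.06, Lamb2 from -0.23 to -0.08 and Lama5 from 0.09 to 0.20. Of the integrins that bind laminin or collagen, Itga6 moved from 0.15 to 0.03, Itga3 from 0.06 to 0.24, Itgb1 from -0.04 to -0.06, Itga1 from -0.43 to -0.28 and Itga10 from 0.07 to 0.21. Of the leukocyte integrins, Itgal moved from 0.23 to 0.36, Itgax from 0.05 to 0.30, Itgae from 0.13 to 0.20 and Itgb7 from 0.14 to 0.33. Of the remaining alpha subunits, Itga5 moved from 0.14 to 0.08, Itgav from 0.07 to 0.17, Itga4 from 0.02 to 0.05 and Itga9 from 0.43 to 0.12.

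Over all 8 left-out libraries, 4 of the 26 members, Itga1, Itgb2, Itgb3 and Lamc1, met the study's threshold in at least 1 fit, Itga7 reached an unadjusted p under 0.05 with a smaller fold, Lama4, with such a p over all libraries, had one in 2 of the 8 fits, and 0 had an adjusted p under 0.05 in limma. Itgb3 met it without Nr2f2 d/d replicate 4, with a log2 fold change of 0.53 (unadjusted p = 0.0110, adjusted p = 0.128 from limma) against 0.37 with all 8 libraries and 0.23 to 0.53 over these fits. Itga7 was at 0.42 without Nr2f2 f/f replicate 4 (unadjusted p = 0.00878, adjusted p = 0.142 from limma).

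**Figure D5:**
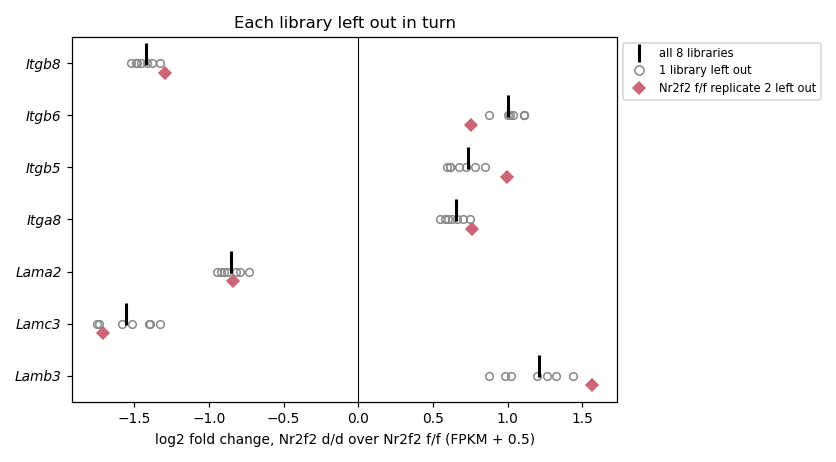
Log2 fold change of Nr2f2 d/d over Nr2f2 f/f (x axis, on log2 of FPKM + 0.5) for the 7 members at the study's threshold, with all 8 libraries (bars), with each library left out in turn (circles) and with Nr2f2 f/f replicate 2 left out (diamonds). No point crosses 0, and leaving out replicate 2 moves Itgb5 from 0.73 to 1.00, Lamb3 from 1.21 to 1.56 and Itgb6 from 1.00 to 0.75.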

How the data were processed

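RNA from uterine tissue of 4 Nr2f2 f/f and 4 Nr2f2 d/d mice was sequenced as 76-bp paired-end reads. FPKM were deposited. The authors computed these FPKM from reads trimmed with cutadapt, aligned to mm10 with STAR and counted with featureCounts, and the submitters' processing notes also name Cufflinks. The gene annotation and the strand setting are not given in the sources used here, and fragments of overlapping genes can be counted for the wrong gene. FPKM are relative to a library's total. Of 24963 genes, 3893 were at 0 in all libraries.

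Groups and replicate numbers came from the sample titles. With 0.5 added, FPKM were log2-transformed, and the 14323 genes whose mean reached 0.5 FPKM were tested with limma 3.58.1 in R 4.3.3 (eBayes with a trend, two-sided, Benjamini-Hochberg adjustment over all of them). The paper's DESeq2 test of counts was not used. Exact permutation tests were two-sided. P-values from limma set the genotype difference against the spread between these mice, moderated over all genes tested. Permutation p-values rank that difference among all arrangements of the libraries. The fit was checked on simulated data. Depth was recovered in Python 3.11.15 from 1409 genes of 1 exon, whose FPKM gave whole fragments, within 0.1, in 96.9% to 98.7% of values at 1 total per library. A floor of 3 fragments for a gene of 1 kb was 0.0324 to 0.0489 FPKM and covers counting error only. Promoter windows are from RefSeq, and gene coordinates from GENCODE vM21.

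The members, the pathway and marker lists and the tests were chosen with earlier results of these data known, and stratified epithelium markers were added later. Values in all 8 libraries are given for members at either threshold, their partner chains and laminin chains of the same kind. They are also given for Itgb1, Lamc1 and Itgb2, and other members were named where they were read by class. Of the lists, up to 5 genes with an adjusted p under 0.05 and Ptprc were named. Beyond this rule Epcam, Krt18, Cldn7, Foxa2, Tek, Krt5, Trp63, Fap and Npnt were chosen after their values were seen. Of the 37 members, 1 is not reported here, and counts of members leave it out. Alternatives were other added values, filters, scalings and variance estimates, the replicate number as a block, and each library left out.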

Additional observations from a re-analysis of the deposited data

Results flagged for a closer look

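In 72 groups of 4 values, 1 for each member and genotype, the highest or lowest value was noted where its gap to the nearest other, as a share of the group's range, was over Dixon's 95% critical value, which chance does in about 1 in 20 groups. It happened in 5 of the 72, and in all 5 the value was the highest of the controls and belonged to Nr2f2 f/f replicate 2. They were Lama3 at 42.661 FPKM, Lama1 at 1.384 FPKM, Lamb2 at 51.925 FPKM, Itgal at 6.613 FPKM and Itga11 at 0.766 FPKM, with gaps of 0.939, 0.965, 0.863, 0.837 and 0.830 of the range. The 5 values come from 1 uterus and are not independent of each other.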

How the results depend on the processing

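With other values added before the log2, other filters, median-ratio or quantile scaling and other variance estimates, 1 integrin and 1 laminin had an adjusted p under 0.05, as in the text. Of 330 member results under these settings and the replicate block, 323 kept their direction and their side of the threshold and 3 changed sign, and the 7 members at the study's threshold changed sign in 0 settings. With quantile scaling Itgb5 was no longer at that threshold (unadjusted p = 0.0539 from limma), and 3 integrins and 4 laminins were. With the description number as a block, 6 integrins and 4 laminins were at it, against 4 and 3 in the text. Left out in turn, the libraries gave 42 to 348 genes, 0 to 2 integrins and 0 to 1 laminins with an adjusted p under 0.05, against 375, 1 and 1 with all 8.

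The replicate numbers of the titles and of the descriptions differ. Correlations of same-numbered libraries were -0.204 to 0.045 and -0.204 to 0.149. These few correlations, with no differently numbered libraries beside them, cannot decide whether either numbering pairs the mice. With the replicate number as a block, the adjusted calls were 1 gene by title number and 0 by description number, with 0 integrins and 0 laminins in both, and the adjusted p was 0.110 and 0.0918 for Itgb8 and 0.123 and 0.104 for Lama2. By description number, Nr2f2 f/f replicate 2 and Nr2f2 d/d replicate 3 had no same-numbered library of the other genotype. Their values therefore did not enter the genotype difference. In that fit Itga6 was at -0.0079, Itgb4 at 0.073 and Lama3 at 0.30 on the log2 scale. By title number, Itga7 and Itga1 had unadjusted p of 0.0479 and 0.0483 (adjusted p = 0.285 for both from limma). The cause of the fewer adjusted calls was not tested.

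Among members not at the study's threshold, 13 changed sign when 1 library was left out. Their log2 fold changes ranged from -0.080 to 0.58 for Itga2, -0.090 to 0.26 for Itga2b, -0.069 to 0.24 for Itga3, -0.10 to 0.088 for Itga4, -0.12 to 0.21 for Itga10, -0.020 to 0.26 for Itgae, -0.033 to 0.28 for Itgam, -0.000865 to 0.17 for Itgav, -0.27 to 0.33 for Itgax, -0.21 to 0.080 for Itgb4, -0.023 to 0.33 for Itgb7, -0.89 to 0.45 for Lama3 and -0.029 to 0.20 for Lama5. Counting error weighs most on Lama1 and Itgad, whose lowest estimates were 33.3 and 34.2 fragments in a library, and neither was tested.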
